A study of Mus musculus with 3 samples.

Results

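Mitochondrial ribosomal protein (MRP) genes encode, in the nucleus, the protein parts of the ribosome that works inside mitochondria. They were chosen by symbol alone, as every gene whose symbol is Mrpl (large subunit) or Mrps (small subunit) followed by a number. The rule found 78 genes with 99 probes, of 20144 named genes with 26581 probes on the array. Their levels were compared across the differentiation of 3T3-L1, a mouse preadipocyte cell line whose cells fill with lipid once induced, at 2, 8 and 20 days after adipogenic induction. The series set out to follow gene expression as fat cells enlarge, and its labels name no other treatment and no genetic change on any day. For each day there is 1 Agilent 1-colour array of Cy3-labelled total RNA, and nothing in the labels says how many cultures stood behind it. All differences therefore compare single arrays, without a test.

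The mitochondrial ribosome translates the few messages of the mitochondrial genome, all of which code for core subunits of the respiratory chain and the ATP synthase. Its proteins are made in the cytosol and imported, and they assemble on ribosomal RNA transcribed within the mitochondrion. Many of them descend from bacterial ribosomal proteins, and others have no bacterial counterpart. Adipocytes enlarge their mitochondrial mass and change its make-up as they differentiate.

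Levels are given as log2 of the processed intensity minus the array's 75th percentile, so that 0 is the brightness below which 75% of probes lay. A difference is the later day minus the earlier day on that log2 scale, and a gene counts as measured where both arrays show its brightest probe well above background. The error beside a difference is a technical SD, taken from the spread between repeated spots of the same probe on an array, and it holds no spread between cultures. In total RNA from a dish, fewer cells of a type and less RNA per cell cannot be told apart. The levels of different probes depend on the probe, so genes were not ordered by level.

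Between 55.3% and 56.9% of spots were well above background on the 3 arrays, and 0 spots were saturated. Of 8 adipocyte markers, 7, 8 and 8 were well above background on days 2, 8 and 20, with median levels of 4.71, 7.10 and 6.81. Adipoq, the hormone adiponectin, read 5.07, 8.90 and 8.18, and Fabp4 read 8.40, 8.35 and 7.64. On day 8 against day 2 Cfd was at 6.46, Adipoq at 3.83, Slc2a4 at 3.42 and Pparg at 1.71. Plin1 was at 0.80, Lpl at 0.50 and Fabp4 at -0.05, while Lep was not above background on day 2. The 6 markers of dividing cells were above background each time, with median levels of 3.16, -1.36 and -0.61 on days 2, 8 and 20. That list lay highest on day 2, where most MRP genes also did. Of 6 preadipocyte or fibroblast markers, 5, 6 and 6 were above background, with median levels of 0.99, 1.23 and 2.55. On day 20 against day 8 Thy1 was at 1.81, Dlk1 at 1.47, Pdgfrb at 0.83, Pdgfra and Col1a1 at 0.66 each and Cd34 at -1.17. On day 8 against day 2 Pdgfrb was at 2.53, Col1a1 at 0.77, Pdgfra at 0.09, Dlk1 at -0.46 and Thy1 at -0.68. Cd34 was not above background on day 2. Of 5 macrophage markers on the array, 3 were above background on every day, with Itgam at 3.05, 3.30 and 2.17 and Cd14 at -2.92, 0.05 and 0.37, while Adgre1 and Ptprc were not. Of 4 endothelial markers 2 were, with Kdr at 2.19, 2.06 and 1.44, while Cdh5 and Tek were not, and of 6 muscle markers Des alone was, at -3.56, -0.04 and -0.06. The part of these lists in the MRP differences was not tested. The 75th percentile itself stood at 662, 636 and 927 intensity units over the 3 days. Scaling on 7 spike-in probes in its place added 0.04 to every day 8 minus day 2 difference, 0.65 to every day 20 minus day 8 difference and 0.69 to every day 20 minus day 2 difference. Medians of the whole MRP list that involve day 20 are therefore also given relative to the median over all measured genes, which moves by the same constant. Values of single genes and of smaller groups are on the plain scale unless said otherwise, and on the spike-in scale each fold by which a gene was lower on day 20 than on day 2 is 1.62 times smaller. Any day 20 minus day 8 difference between -0.65 and 0 lies above 0 on the spike-in scale.

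Relative to all measured genes, most MRP transcripts were lower on the later day of each comparison, under each scaling tried. Of the 78 genes, 77 were well above background on all 3 arrays. The exception was Mrpl21, a bacterial-type large subunit protein, whose single probe read -7.55, -7.35 and -8.07 on days 2, 8 and 20 without being well above background. Of the 77 measured genes, day 2 had the highest level for 68, day 8 for 9 and day 20 for 0, and day 20 had the lowest for 74. Among all 11810 genes measured on the 3 arrays, 48.1% were highest on day 2 and 39.2% lowest on day 20. This order depended on the scaling of day 20: with spike-in scaling 44 MRP genes were highest on day 2 and 32 on day 20, against 26.1% and 70.5% of all genes, and 58 MRP genes were lowest on day 8.

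**Figure D1:**
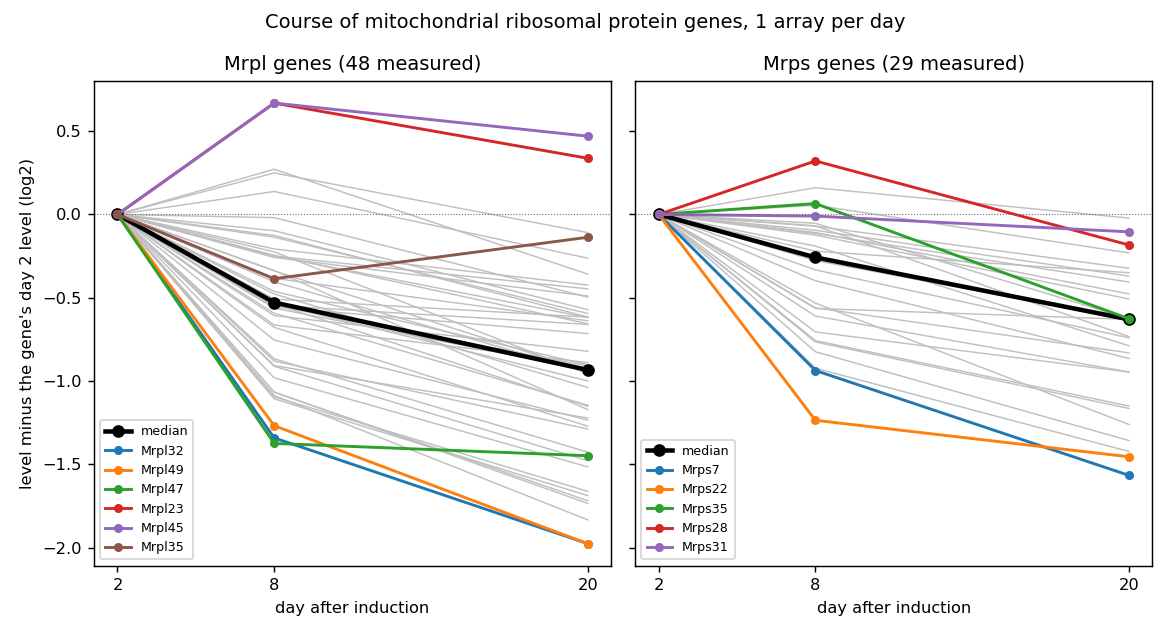
Each line is 1 gene, drawn as its log2 level minus its own day 2 level on the y axis against the day after induction on the x axis, with 48 measured Mrpl genes on the left, 29 Mrps genes on the right and the median in black. The Mrpl median lay at -0.53 on day 8 and -0.93 on day 20 and the Mrps median at -0.26 and -0.63, while Mrpl45 and Mrpl23 lay above 0 on both later days; spike-in scaling raises every day 20 point by 0.69.

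On day 8 against day 2, the median difference of the 77 MRP genes was -0.46, beside -0.06 over the 12044 genes measured on both days. Lower levels on day 8 were seen in 68 of 77 MRP genes. At least 1.5-fold lower were 26 MRP genes (33.8%), beside 25.3% of all measured genes, and 2 were at least 1.5-fold higher, beside 22.6% of all genes. At 2-fold, 9 MRP genes were lower, beside 12.9% of all genes, and 0 were higher, beside 13.8%. The shares of lower MRP genes thus lay near those of all genes at 1.5-fold and 2-fold, and fewer MRP genes were higher. The differences of the 77 genes ran from -1.37 to 0.67. Their technical SD ran between 0.019 and 0.073, and 59 MRP genes were lower and 8 higher by more than 2 technical SDs.

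Between days 8 and 20, 76 of 77 MRP genes lay below the median over all measured genes, and their own median was -0.36 relative to it. On the plain scale the MRP median was -0.41 and that of all 12321 measured genes -0.05, and 76 MRP genes were below 0, a number that was 9 with spike-in scaling. The 77 differences ran from -0.83 to 0.25, a narrower range than on day 8 against day 2. At least 1.5-fold lower were 16 MRP genes (20.8%), beside 8.94% of all genes, and 0 were at least 1.5-fold higher, beside 8.43%. No MRP gene (0 of 77) passed 2-fold in either direction, beside 1.74% of all genes lower and 3.58% higher. The count of 16 rests on the scaling, and it was 2 after quantile normalization, 1 after cyclic loess and 0 on the spike-in scale. These were 2.60%, 1.30% and 0% of the MRP genes, beside 5.62%, 4.65% and 0.84% of all genes. Under these 3 normalizations the share of lower MRP genes thus lay below that of all genes.

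Over the whole course, on day 20 against day 2, the MRP median lay 0.69 below that of all genes (a relative difference of -0.69), and 71 of 77 genes were below it. On the plain scale the MRP median was -0.83, beside -0.14 over 11888 genes, and it was -0.14 for the MRP genes with spike-in scaling. At least 1.5-fold lower were 56 MRP genes (72.7%), beside 31.1% of all genes, and 0 were at least 1.5-fold higher, beside 24%. The 77 differences ran from -1.98 to 0.47. At least 2-fold lower were 26, beside 17% of all genes, and 0 were at least 2-fold higher, beside 15.5%. The 3 comparisons share arrays in pairs, so none of them is independent evidence for another.

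**Figure D2:**
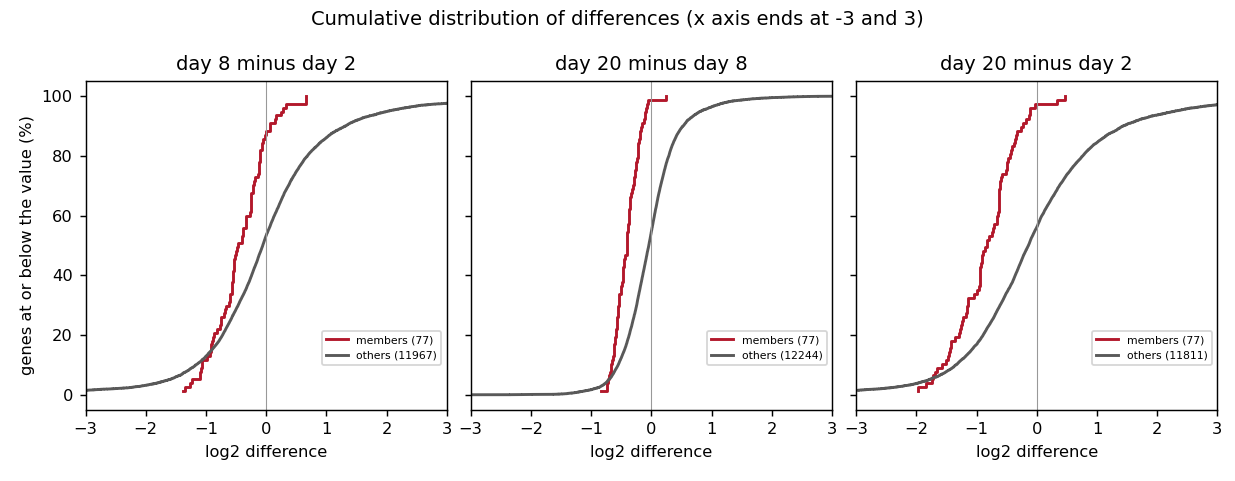
The curves give the percentage of genes (y axis) with a log2 difference at or below the value on the x axis, for the 77 measured MRP genes (members) and for all other measured genes (others), in each comparison. The MRP curve reaches 100% at 0.67, 0.25 and 0.47 in the 3 panels, while the other genes extend beyond both ends of the axis; spike-in scaling moves both curves of the middle and right panels together, by 0.65 and 0.69.

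Most MRP probes were bright. Of the 77 MRP genes, 68 lay in the brightest of 4 equal groups of measured genes. In that group the median of all genes was -0.14 on day 8 against day 2 and -0.19 on day 20 against day 8, and 28.1% and 10.8% of its genes were at least 1.5-fold lower. From the dimmest group up, the other 3 groups held 23.4%, 24.5% and 25.1% of genes at least 1.5-fold lower on day 8 against day 2, and 13.8%, 6.56% and 4.51% on day 20 against day 8, where the dimmest group thus had the highest share. The 68 MRP genes of the brightest group had medians of -0.43 and -0.46, and 23 and 16 of them were at least 1.5-fold lower. The 8 MRP genes of the next group had medians of -0.56 and -0.27. Normalizations that act on brightness, quantile and cyclic loess, put the day 8 minus day 2 median of the MRP genes at -0.31 and -0.25 and that of all genes at -0.03 and 0.09. Relative to all genes the MRP median was -0.29 and -0.34, beside -0.40 in the reported values. The part of brightness in the differences was not tested further.

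Of the large subunit, 29 of 30 bacterial-type proteins were measured, and they had a median of -0.55 on day 8 against day 2, with 13 at least 1.5-fold lower (44.8%) and 1 higher, beside 25.3% and 22.6% of all genes. Mrpl32, whose maturation by a mitochondrial protease licenses assembly of the subunit in yeast and mouse, read 4.85, 3.51 and 2.87 on days 2, 8 and 20. The level was highest on day 2, and the differences were -1.34 ± 0.06 on day 8 against day 2 and -0.63 ± 0.06 on day 20 against day 8 (technical SD). Mrpl20, the counterpart of a protein that binds the large ribosomal RNA early in bacterial assembly, read 7.21, 6.14 and 5.49 on the 3 days. Mrpl28, another bacterial-type protein, read 3.82, 2.74 and 1.99, and its level was 3.56-fold lower on day 20 than on day 2, a log2 difference of -1.83 (-1.14 after the spike-in constant). Mrpl47, the counterpart of a protein at the exit of the bacterial peptide tunnel, read 4.42, 3.04 and 2.97. Its step of -1.37 on day 8 against day 2 was the lowest of all MRP genes, and its day 20 minus day 8 difference was -0.07, beside a technical SD of 0.06 (0.58 after the spike-in constant). Both probes of Mrpl47 gave this course, the other one at -1.25 and -0.08.

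The promoter of Mrpl32 is shown because the gene had the lowest day 20 minus day 2 difference of the bacterial-type proteins and because the stretch carries repeated copies of a motif known from promoters of mitochondrial genes. The stretch, from RefSeq and on build GRCm38.p6, is chr13:14613038-14613241 on the minus strand, 204 bases from the start of Mrpl32 to that of Psma2, a proteasome subunit gene on the opposite strand. Capitals mark GCGCATG or TGCGCA, the core letters bound by NRF1, on either strand.
Mrpl32: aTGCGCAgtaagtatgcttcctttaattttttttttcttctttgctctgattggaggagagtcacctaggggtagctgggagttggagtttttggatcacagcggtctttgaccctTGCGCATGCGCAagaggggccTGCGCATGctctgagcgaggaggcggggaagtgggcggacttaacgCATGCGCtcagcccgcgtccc
The capitals hold 4 matches of each motif, some of which overlap. On day 8 against day 2, Psma2 was at -0.93 beside -1.34 for Mrpl32.

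Mrpl14, a bacterial-type protein at the interface between the subunits, read 6.95, 6.62 and 5.78 on days 2, 8 and 20, and its day 20 minus day 8 difference of -0.83 was the lowest of the list. Its day 8 minus day 2 difference was -0.34, so the later step was the larger on the plain scale, while on the spike-in scale the steps were -0.30 and then -0.18. Mrpl3, Mrpl13 and Mrpl33 were lower in both steps on the plain scale, and more so in the first, with day 20 minus day 2 differences of -1.48, -1.51 and -1.27. Mrpl1, which forms a mobile stalk in bacterial ribosomes, read 1.52, 0.64 and 0.24, and Mrpl19 read 2.42, 1.51 and 1.20. Mrpl35 ran otherwise, at -0.88, -1.27 and -1.02 on days 2, 8 and 20. It was lowest on day 8 and was the 1 MRP gene above 0 on day 20 against day 8, at 0.25 ± 0.08 (technical SD), from the dimmest probe among the measured ones.

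The 2 MRP genes that were at least 1.5-fold higher on day 8 than on day 2 both belong to the large subunit. Mrpl45, a mitochondria-specific protein by which the ribosome contacts the inner membrane, read 3.68, 4.35 and 4.15 on days 2, 8 and 20. Mrpl23, at the exit of the peptide tunnel, read 4.19, 4.86 and 4.53. Both were lowest on day 2 and highest on day 8, with day 8 minus day 2 differences of 0.67 ± 0.06 each (technical SD). Under quantile normalization these were 0.83 for Mrpl45 and 0.81 for Mrpl23, and under cyclic loess 0.88 and 0.89. Their day 20 minus day 2 differences were 0.47 and 0.34, and each gene has 1 probe.

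The promoters of Mrpl45 and Mrpl23 are shown to set these 2 genes beside Mrpl32. They are the 250 bases before each gene's start, from RefSeq on build GRCm38.p6, at chr11:97315466-97315715 and chr7:142532782-142533031, both on the plus strand. Capitals again mark GCGCATG or TGCGCA.
Mrpl45: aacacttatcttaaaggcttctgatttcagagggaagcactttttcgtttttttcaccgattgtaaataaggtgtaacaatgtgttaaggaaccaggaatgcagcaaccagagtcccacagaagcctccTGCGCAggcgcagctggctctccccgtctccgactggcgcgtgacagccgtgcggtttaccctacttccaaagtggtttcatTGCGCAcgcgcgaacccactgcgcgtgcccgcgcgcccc
Mrpl23: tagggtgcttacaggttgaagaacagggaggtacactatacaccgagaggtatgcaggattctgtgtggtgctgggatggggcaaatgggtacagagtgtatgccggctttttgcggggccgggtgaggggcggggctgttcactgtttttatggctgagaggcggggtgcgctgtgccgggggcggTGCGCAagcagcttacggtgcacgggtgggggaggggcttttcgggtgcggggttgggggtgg
Mrpl45 has 2 matches of TGCGCA and Mrpl23 has 1, so these letters were found in genes at both ends of the list. The same motifs, and those of ETS factors and YY1, were absent from the stretches read for Mrpl49 and Mrpl28. These genes also stand near the low end, Mrpl49 by its brighter probe alone.

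All 21 proteins of the large subunit classed as mitochondria-specific were measured. They include Mrps30 and Mrps18a, named as small subunit proteins but lying in the large one, although Mrps18a does descend from a bacterial protein. Their median was -0.46 on day 8 against day 2, with 5 at least 1.5-fold lower (23.8%) and 1 higher, beside 25.3% and 22.6% of all genes. On day 20 against day 8 it was -0.44 (-0.39 relative to all genes), with 5 lower (23.8%) and 0 higher, beside 8.94% and 8.43% of all genes. Mrpl49 read 4.32, 3.05 and 2.34 on days 2, 8 and 20 with its brighter probe, a day 8 minus day 2 difference of -1.27. Its other probe read 2.70, 2.36 and 1.97, a difference of -0.34, so the direction held in both probes and the size did not. Mrpl57 read 6.66, 5.60 and 4.93, and was 3.33-fold lower on day 20 than on day 2, at -1.73 on the log2 scale (-1.04 after the spike-in constant). Mrpl50, whose brighter probe is printed 10 times on each array, read 3.46, 2.35 and 1.77. Spots of this probe on 1 array had an SD between 0.027 and 0.035. Its steps were -1.11 and -0.58 on the plain scale, and the second lies above 0 on the spike-in scale. The other probe of Mrpl50 gave -0.66 and -0.71, so the probes differed by more than the spots of the brighter one did. Mrpl41 was lower in both steps on the plain scale, at 5.89, 4.80 and 4.23 on days 2, 8 and 20. Mrpl51 and Mrpl54 were highest on day 8, at 6.73, 6.98 and 6.62 and at 3.69, 3.96 and 3.33 on days 2, 8 and 20. Mrpl39, which resembles threonyl-tRNA synthetase, read 4.11, 3.60 and 3.49.

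The small subunit followed with smaller values on day 8 against day 2. Its 17 bacterial-type proteins had a median of -0.22, with 5 at least 1.5-fold lower (29.4%) and 0 higher, and its 9 mitochondria-specific proteins a median of -0.40, with 3 lower (33.3%) and 0 higher. These shares of lower genes lay near the 25.3% of all genes, while 22.6% of all genes were higher. Between days 8 and 20 these groups had medians of -0.37 and -0.40 (-0.32 and -0.35 relative to all genes), with 2 and 3 genes at least 1.5-fold lower (11.8% and 33.3%), beside 8.94% of all genes. By name, the 48 measured Mrpl genes had a median of -0.53 on day 8 against day 2 and the 29 Mrps genes -0.26, and whether the subunits differ was not tested. The middle 50% of the Mrpl genes ran from -0.87 to -0.25 and that of the Mrps genes from -0.61 to -0.07, so the Mrpl and Mrps genes overlapped widely.

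Mrps7, whose bacterial counterpart starts assembly of the head of the small subunit, read 6.33, 5.39 and 4.76 on days 2, 8 and 20. It was 2.96-fold lower on day 20 than on day 2, a log2 difference of -1.57 (-0.87 after the spike-in constant), and its other probe gave -1.004 on the plain scale. Mrps22, a mitochondria-specific protein in which inherited mutations cause mitochondrial disease in humans, read 3.65, 2.42 and 2.20. Its difference was -1.24 on day 8 against day 2 and -0.22 on day 20 against day 8 (0.43 after the spike-in constant). Mrps10 and Mrps17 were lower in both steps on the plain scale, at -1.36 and -1.42 on day 20 against day 2. Mrps26 read 6.92, 6.39 and 5.66, with differences of -0.53 on day 8 against day 2 and -0.73 on day 20 against day 8. The order of these steps turned on the spike-in scale, where they were -0.49 and -0.08.

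Several small subunit genes did not follow the list on day 8. Mrps35, printed 10 times on each array, read 3.86, 3.93 and 3.24 on days 2, 8 and 20. Its day 8 minus day 2 difference was 0.07 ± 0.02 (technical SD) and its day 20 minus day 8 difference -0.69 ± 0.02, so on the plain scale the later step alone carried its lower level. On the spike-in scale that step was -0.04, and the day 20 level lay above that of day 2. Mrps28 was highest on day 8, at 4.16, 4.48 and 3.98. Mrps15, an early binder of the small ribosomal RNA in bacteria, read 3.26, 3.42 and 3.24, and Mrps31 read 3.66, 3.65 and 3.55. Of Mrps31, 0 of the 3 differences reached 2 technical SDs, and of Mrps15 that on day 20 against day 2 did not.

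The stalk of the large subunit recruits translation factors and is built of Mrpl10, its base, and copies of Mrpl12, which also binds the mitochondrial RNA polymerase. Mrpl12 read 6.73, 6.50 and 5.77 on days 2, 8 and 20, and Mrpl10 read 3.18, 2.63 and 2.52. Mrpl12 was at -0.22 on day 8 against day 2 and at -0.73 on day 20 against day 8, whereas Mrpl10 was at -0.55 and -0.11. On day 20 against day 2, Mrpl12 was at -0.96 and Mrpl10 at -0.66. On the spike-in scale the day 20 minus day 8 differences were -0.08 for Mrpl12 and 0.54 for Mrpl10.

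The Mrps18 genes are paralogues that descend from the same bacterial protein. Mrps18c read 5.0, 4.25 and 3.85 on days 2, 8 and 20 and was 2.22-fold lower on day 20 than on day 2, at -1.15 on the log2 scale (-0.46 after the spike-in constant). Mrps18a, in the large subunit, read 4.69, 4.60 and 4.32, and Mrps18b read 5.61, 5.53 and 5.28. Differences of Mrps18a and Mrps18b on day 20 against day 2 were -0.37 and -0.32, and on day 8 against day 2 the other probe of Mrps18b lay above 0, at 0.18. Mrps36, which bears the name of a ribosomal protein but is now known as a subunit of the oxoglutarate dehydrogenase complex of the citric acid cycle, read 4.14, 4.19 and 3.91. The Mrps36 difference of 0.06 on day 8 against day 2 was among the higher of the list, and it lay within 1 technical SD of 0. On day 20 against day 8 the difference was -0.29.

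**Figure D3:**
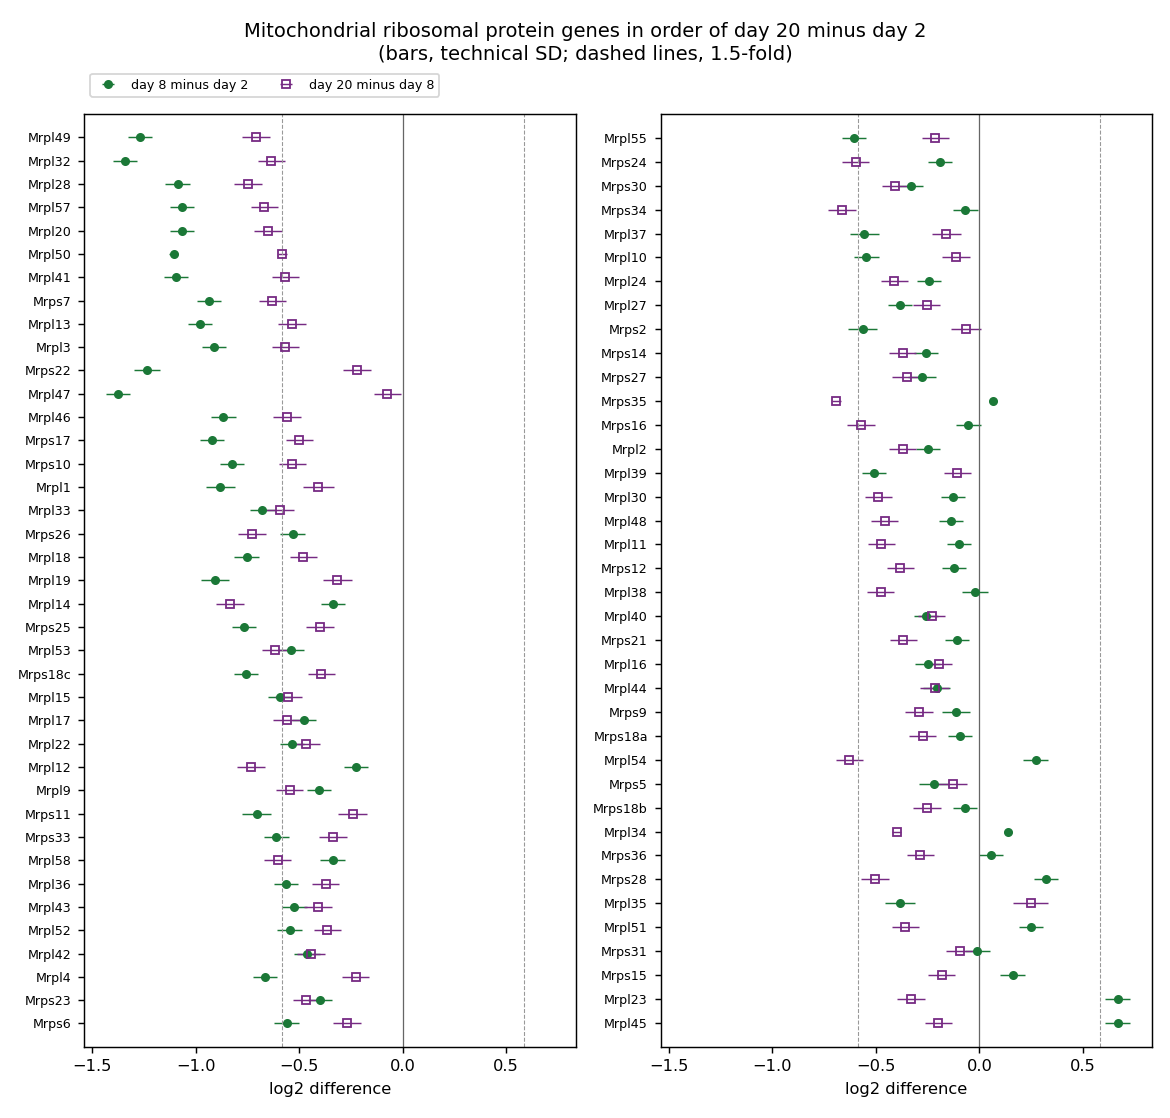
All 77 measured MRP genes run down the page in order of their day 20 minus day 2 difference, with the log2 difference of day 8 minus day 2 (filled circles) and of day 20 minus day 8 (open squares) on the x axis, bars of 1 technical SD and dashed lines at 1.5-fold. Mrpl49 and Mrpl32 stand at the top at -1.98 each over the whole course and Mrpl45 at the foot at 0.47. The place of Mrpl49 rests on its brighter probe, and its other probe gave -0.73. Spike-in scaling moves every square by 0.65 to the right.

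Probes of the same gene mostly ran the same way. For 21 genes with another measured probe, the other probe lay on the same side of 0 in 20 on day 8 against day 2, where Mrps18b was the exception, in 20 on day 20 against day 8, where Mrps14 was, and in 21 on day 20 against day 2. The median gap between the probes was 0.16, 0.06 and 0.17 in the 3 comparisons, and it passed 0.5 for Mrpl49 and, on day 20 against day 2, also for Mrps7.

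Ribosomal proteins of mitochondria that carry other symbols were taken apart from the rule. All 5 were measured, and their median was -0.19 on day 8 against day 2, with 2 at least 1.5-fold lower and 0 higher, beside 25.3% and 22.6% of all genes. Ptcd3, which binds RNA in the small subunit, read 5.82, 4.70 and 4.07 on days 2, 8 and 20, and Chchd1 read 6.40, 5.69 and 5.08. Dap3, a GTP-binding protein of the small subunit, read 5.36, 5.58 and 5.35, and Aurkaip1 read 5.45, 5.84 and 5.33, both highest on day 8. Between days 8 and 20, 2 of the 5 were at least 1.5-fold lower, beside 8.94% of all genes.

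The genes that work with the mitochondrial ribosome did not all share its values. The counts that follow are on day 8 against day 2, when 25.3% of all genes were at least 1.5-fold lower and 22.6% higher. The list of mitochondrial translation factors, which also holds the RNA-binding protein Slirp, had a median of -0.34 over 14 measured genes. In it 2 were at least 1.5-fold lower, Slirp at -0.82 and the elongation factor Gfm1 at -0.74, and 0 higher. Mitochondrial aminoacyl-tRNA synthetases and their partners, 19 measured, had a median of -0.04, with 2 lower and 1 higher. Mars2, which charges methionine tRNA, was at -2.07 and Gatb, of the complex that makes glutaminyl-tRNA, at 0.99. Factors of ribosome assembly and ribosomal RNA modification, 20 measured, had a median of -0.07, with 3 lower, led by the methyltransferase Trmt61b at -1.97, and 1 higher, Mettl17 at 0.63. The machinery of protein import, with its chaperones and proteases, had a median of -0.68 over 24 measured genes, with 13 lower, among them Timm9 at -2.20 and Timm8a1 at -1.84, chaperones of the intermembrane space. The 1 gene of that list at least 1.5-fold higher was Lonp1, a matrix protease, at 0.63.

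Other large complexes serve as a scale. Nuclear-encoded subunits of the respiratory chain and the ATP synthase, which assemble with the products of the mitochondrial ribosome, had a median of 0.01 on day 8 against day 2 over 82 measured genes. Of these, 5 were at least 1.5-fold lower (6.10%) and 12 higher (14.6%). Proteins of the cytosolic ribosome had a median of -0.21 over 82 measured genes, with 8 lower (9.76%) and 0 higher. That list was taken by symbol and also holds Rps19bp1, Rpl7l1 and Rps23rg1, which are not standard ribosome subunits. All of them are among its 8 lower genes, at -1.10, -1.79 and -0.63. Of all genes 25.3% were lower and 22.6% higher, so all of these shares lay below those of all genes. Between days 8 and 20 and relative to all genes, the medians were -0.45 for respiratory subunits and -0.61 for cytosolic ribosomal proteins, beside -0.36 for the MRP genes. On the plain scale 25 of 83 respiratory genes (30.1%) and 57 of 82 cytosolic ribosomal genes (69.5%) were then at least 1.5-fold lower. The MRP genes had 16 of 77 (20.8%), and the share over all genes was 8.94%. The MRP genes thus had the lowest median of these 3 classes on day 8 against day 2 and the highest on day 20 against day 8, and none of these differences between classes was tested.

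**Figure D4:**
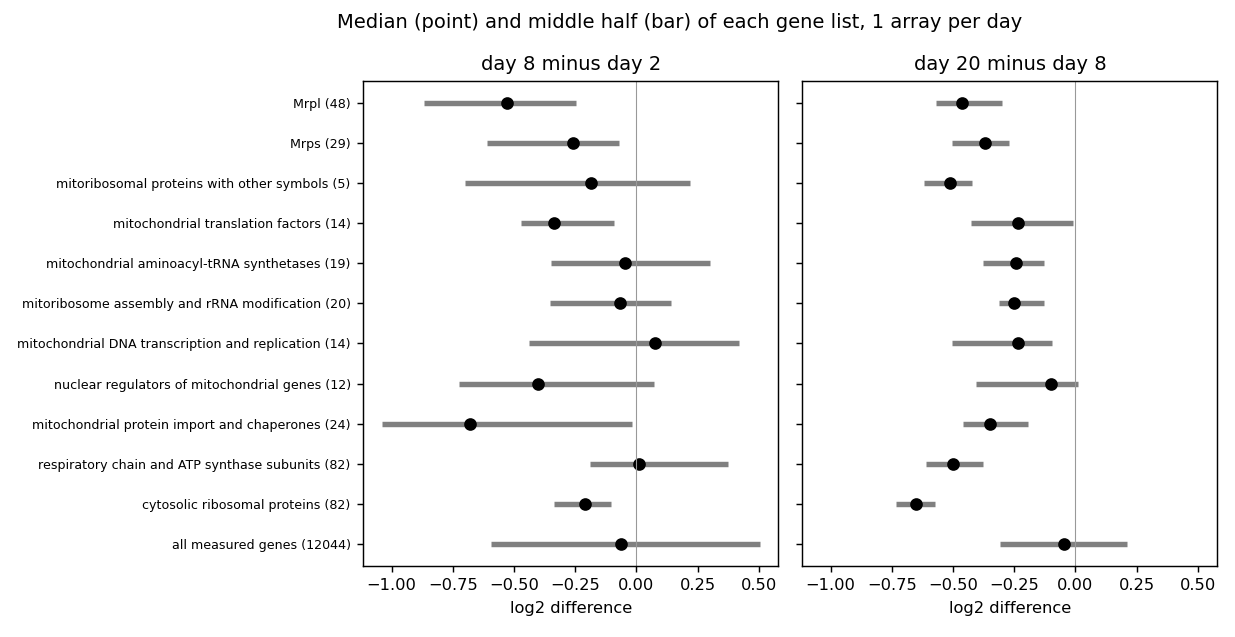
For each gene list, named with its number of genes measured on days 2 and 8, the point is the median log2 difference and the bar runs from the lower to the upper quartile, on day 8 against day 2 (left) and day 20 against day 8 (right). On the left the Mrpl genes lie at -0.53 beside 0.01 for respiratory subunits, and on the right cytosolic ribosomal proteins lie lowest at -0.65; spike-in scaling moves every point on the right by 0.65.

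Regulators known to act on nuclear genes for mitochondria had a median of -0.40 on day 8 against day 2 over 12 measured genes, with 4 at least 1.5-fold lower and 2 higher, beside 25.3% and 22.6% of all genes. Pprc1, a growth-related coactivator of the PGC-1 family, read -2.90, -4.59 and -4.77 on days 2, 8 and 20. Nrf1, a transcription factor of mitochondrial and ribosomal genes, read 0.71, -0.61 and -0.62, and Gabpb1, a subunit of the ETS-family factor GABP, read 1.13, 0.12 and 0.09. On day 8 against day 2 these 3 genes were at -1.69, -1.32 and -1.003. The GABP subunits Gabpb2 and Gabpa were at -0.55 and -0.06. In the other direction, Sirt3, a mitochondrial deacetylase, was at 1.46, Ppargc1a, which encodes the coactivator PGC-1alpha, at 0.68 and Yy1 at 0.48. Genes of mitochondrial DNA transcription and replication had a median of 0.08 over 14 measured genes, with 3 lower and 3 higher, from Tfam, the packaging factor of mitochondrial DNA, at -0.94 to the thymidine kinase Tk2 at 1.38. Transcript levels of a regulator say nothing of its activity, and no link with the MRP genes was tested.

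Promoter windows of 300 bases, 250 before and 50 after the start, were found in RefSeq for 69 of the 78 MRP genes, spread over 16 chromosomes. The letters CCGGAAG, the core bound by ETS factors, occurred on either strand in 37.7% of MRP genes, beside 13.7% of 15982 genes on the array. TGCGCA occurred in 30.4% beside 11.7%, GCGCATG in 11.6% beside 5.72%, and AAGATGG, bound by YY1, in 18.8% beside 7.39%. For the cytosolic ribosomal proteins the shares were 40% for CCGGAAG and 18.5% for TGCGCA, and for the respiratory subunits 24.6% and 26.1%. GGGCGG occurred in 49.3% of MRP genes beside 52.7% of all genes, CCAAT in 39.1% beside 42.3%, CACGTG in 7.25% beside 9.5%, TGACGTC in 5.8% beside 4.67% and TATAAA in 7.25% beside 14.1%. The windows of MRP genes held a median of 58.7% G and C and 21 CG pairs, beside 57.3% and 14 over all genes. A match is a run of letters and not a shown binding site.

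Among MRP genes, those with a motif had a lower day 8 minus day 2 median than those without it for 7 of the 9 motifs, and a higher one for TGCGCA and TATAAA. On day 8 against day 2 the 25 measured genes with CCGGAAG had a median of -0.48 and the 43 without it -0.46. The 21 genes with TGCGCA had a median of -0.40 and the 47 without it -0.52. The 8 genes with GCGCATG had a median of -0.52 and the 60 without it -0.39. The 13 genes with AAGATGG had a median of -0.55 and the 55 without it -0.40. Between days 8 and 20 the medians were -0.41 and -0.37 with and without CCGGAAG, and -0.47 and -0.39 with and without TGCGCA. They were -0.50 and -0.40 with and without GCGCATG, and -0.37 and -0.41 with and without AAGATGG. A gene can hold several of these motifs, and none of the differences was tested.

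A start on the opposite strand within 500 bases was found for 23 of the 69 MRP genes (33.3%), beside 2014 of 15982 genes (12.6%). In 1 such pair both genes are MRP genes, and the stretch between their starts is shown because it belongs to a protein of each subunit. It is chr7:78783090-78783130 on build GRCm38.p6, from RefSeq, 41 bases read on the minus strand toward Mrpl46, and it holds no match of the motifs for NRF1, ETS factors or YY1, so no letter is in capitals.
Mrpl46: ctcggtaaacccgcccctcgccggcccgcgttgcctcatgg
Mrpl46, a mitochondria-specific protein of the large subunit, read 3.46, 2.59 and 2.03 on days 2, 8 and 20. Mrps11, a bacterial-type protein of the small subunit platform, read 2.28, 1.57 and 1.33. The differences were -0.87 and -0.71 on day 8 against day 2, and -0.56 and -0.24 on day 20 against day 8. On day 20 against day 2, Mrpl46 was 2.69-fold lower and Mrps11 1.93-fold lower, both on the plain scale.

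**Figure D5:**
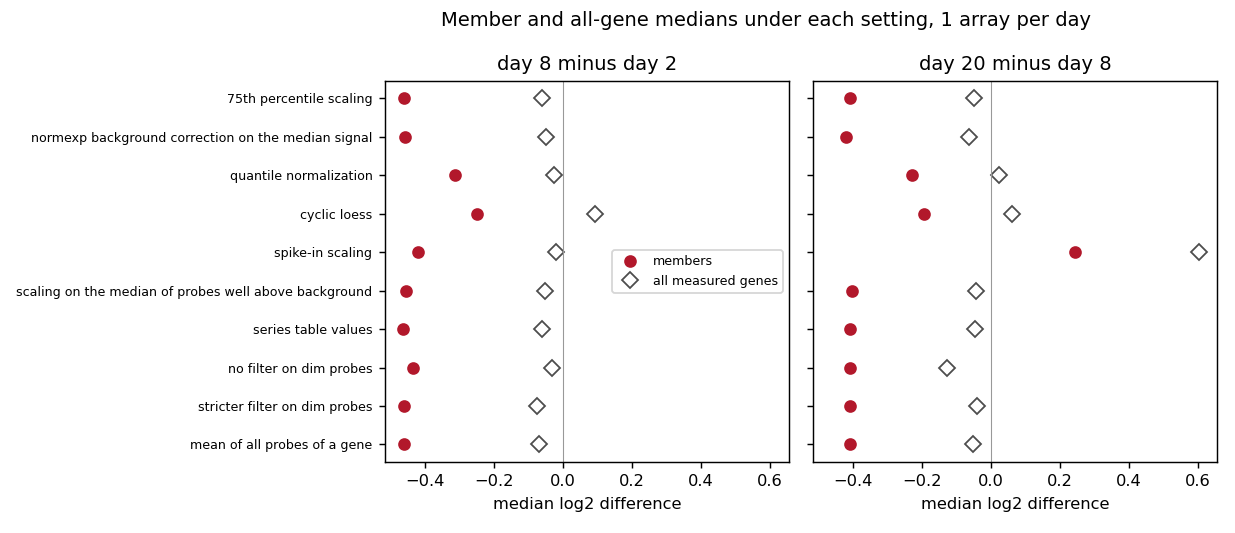
Points are the median log2 difference (x axis) of the MRP genes (members, filled) and of all measured genes (open) under 10 ways of processing the arrays, on day 8 against day 2 (left) and day 20 against day 8 (right). The MRP median lay below that of all genes in every case shown, and on the right it was above 0 with spike-in scaling alone, at 0.24, where the median of all genes was 0.60.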

How the data were processed

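RNA of 3T3-L1 cells on days 2, 8 and 20 was hybridised to 1 Agilent 1-colour array per day on 1 shared slide, per the file headers. The deposited intensity is background-corrected by the feature extraction software (Agilent's, version 10.7.1.1), according to the notes of the submitters, and not scaled between arrays. Other deposited columns, per the file headers, mark spots as well above background, saturated or outlying. Deposited log2 values in the series table are log2 intensity with a constant added on each array (-9.37, -9.31 and -9.86), within 0.01 for 100% of probes. Medians of its columns were -4.80, -4.69 and -4.89.

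Control and outlying spots were dropped, repeated spots averaged, and log2 intensity centred on the 75th percentile of the 39429 probes that are not controls. Of these, 26581 were named by RefSeq accession without version through a gene table of GRCm38.p6, and 12848 stayed unnamed. The array was designed on an earlier build, so no probe positions are given. The brightest probe, averaged over arrays, stood for its gene. Technical SDs came from 243 probes with at least 8 spots per array, as a function of signal.

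Named were, in each comparison, the 6 highest and 6 lowest MRP differences and every MRP gene past 2-fold, MRP genes not above background or with probes 0.5 or more apart, the stalk pair, the Mrps18 paralogues and Mrps36, and the extremes of other lists. Of the MRP genes past 2-fold, Mrpl15 (-1.15), Mrpl17 (-1.04) and Mrps25 (-1.16) are named only here, with their plain day 20 minus day 2 differences. Mrps11, Mrps14, Dap3, Psma2, Gabpa, Gabpb2, Yy1, Rps19bp1, Rpl7l1, Rps23rg1 and divergent partners were named after their values were seen. The MRP genes and all lists were chosen with earlier results of these data known. The calculation was tested on simulated data. Alternatives were other normalizations (quantile, cyclic loess, spike-in, median of bright probes), the series table, other filters on dim probes and the mean of a gene's probes. Normexp correction, planned on the mean signal, was run on the median signal, as decided after seeing the data. Tools were Python 3.11.15, numpy 2.4.6, pandas 2.3.3, matplotlib 3.10.9, R 4.3.3 and limma 3.58.1.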

Additional observations from a re-analysis of the deposited data

How the results depend on the processing

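With 1 array per day, no result could be recomputed without a replicate, no paired analysis was possible because each day has a single array, and the spread between cultures is unknown. Across the alternatives the medians and counts kept their values, within the technical SD or within 1.5 times, except under 3 normalizations; the cause was not tested. With quantile normalization the MRP median was -0.31 on day 8 against day 2, -0.23 on day 20 against day 8 and -0.50 on day 20 against day 2. These last 2 comparisons then held 2 and 33 MRP genes at least 1.5-fold lower, against 16 and 56 in the reported values, and the last also 2 higher, against 0. Of all genes 5.62% and 25.6% were then lower, and in the last comparison 27.1% higher. With cyclic loess the medians were -0.25, -0.20 and -0.38, with 17, 1 and 26 genes lower, against 26, 16 and 56, and 3 higher on day 20 against day 2. Of all genes 19%, 4.65% and 20.5% were then lower, and 32% higher on day 20 against day 2. Relative to all genes the 3 medians were -0.29, -0.25 and -0.47 with quantile normalization and -0.34, -0.26 and -0.52 with cyclic loess, beside -0.40, -0.36 and -0.69 in the reported values. With spike-in scaling the median turned to 0.24 on day 20 against day 8, with 0 genes lower and 2 higher, and was -0.14 on day 20 against day 2, with 16 lower and 4 higher. Of all genes 0.84% were then lower and 51.7% higher on day 20 against day 8, and 11.3% and 48.2% on day 20 against day 2. Spike-in scaling put the all-gene median at 0.60 and 0.55 in these comparisons, and relative to that the MRP medians stayed at -0.36 and -0.69. Of 1134 values of 42 named MRP genes under the alternatives, 823 stayed within 2 technical SDs, 302 moved further on the same side or from a value under 1.5-fold, and 9 that were past 1.5-fold changed sign, all with spike-in scaling. On day 20 against day 8 these were Mrpl32 (0.016), Mrpl33 (0.058), Mrpl53 (0.036), Mrpl54 (0.021) and Mrps7 (0.022). On day 20 against day 2 they were Mrpl10 (0.032), Mrpl39 (0.076), Mrps2 (0.063) and Mrps35 (0.066). Signal over background limits Mrpl21, which gave no difference, and Mrpl35, read from a dim probe.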

Other observations

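Genes that start within 500 bases of an MRP gene on the opposite strand did not all share its values. On day 8 against day 2 the 21 measured protein-coding partners had a median of -0.09. At least 1.5-fold lower were 7 and higher 2, beside 25.3% and 22.6% of all genes. These partners include Mrpl46 and Mrps11, which face each other and are MRP genes themselves. Both are among the 7 lower, at -0.87 and -0.71. On day 20 against day 2 the median of the 21 partners was -0.43. Then 8 were lower and 2 higher, beside 31.1% and 24% of all genes. Mrpl46 and Mrps11 are among these 8 too, at -1.43 and -0.95. Mrpl18 and its partner Tcp1, a subunit of the cytosolic chaperonin, were close at -0.75 and -0.85 on day 8 against day 2. Mrpl57 was at -1.07 and its partner Ska3, which works at the kinetochore of dividing cells, at -4.06. Mrpl47 was at -1.37 beside its partner Ndufb5, a subunit of respiratory complex I, at 0.12. Mrpl49 was at -1.27 (-0.34 by its other probe) beside Fau, which encodes a cytosolic ribosomal protein, at -0.01. Mrpl2 was at -0.25 beside Klc4, a kinesin light chain, at 1.37. These pairs were picked after their values were seen, and no relation within pairs was tested.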
